A study of Homo sapiens with 20 samples.

Results

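The transcription factors that give neural tissue its position between forebrain and tail were examined in differentiating neural progenitors. The cells were made from H1, an embryonic stem cell line in wide use. The set held 47 genes chosen by name, and each was found among the 20237 coding records of the 38369 gene records measured. They fell into 9 forebrain genes, 6 genes of the midbrain and isthmus, 11 HOX genes of paralog groups 1 to 4, 16 HOX genes of paralog groups 5 to 10, and 5 factors that are not bound to 1 region. Where a symbol had more than 1 record, the record with the highest mean over the days was kept. The 47 genes gave 46 distinct records, because HOXC4 and HOXC6 share a record that also holds HOXC5. The record kept for MEIS1 also carries the symbol MEIS2.

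All cultures came from this 1 line and started as progenitors grown with FGF on Matrigel. From day 0 FGF was withdrawn and BDNF was added, with no other agent or genotype compared. The basal medium and its supplements changed at the same switch, so later days differ from day 0 in these as well. Polyadenylated RNA was sequenced before the switch (day 0) and on days 1 and 2, days 4 and 5, and days 11 and 18. Cells meant for days 5, 11 and 18 were replated on day 4 onto poly-D-lysine and laminin, so day 4 and day 5 differ in surface as well as in time. There were 3 cultures on each day except day 5, which had 2 because the authors removed a culture as an outlier. The files held 1 value per record and day, so no spread between cultures can be given, no test was made, and every difference below is a difference between the authors' per-day values.

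The embryonic neural tube is divided along its length by transcription factors with stepped borders. OTX2 marks the forebrain and midbrain and meets GBX2, a homeobox factor of the anterior hindbrain, at the midbrain-hindbrain border, the isthmus. EN1, EN2, PAX2, PAX5 and PAX8 are expressed around that border. Behind it, HOX genes are used in the order of their place in the 4 HOX clusters, with low paralog numbers reaching far forward into the hindbrain and high numbers kept to the spinal cord. PBX and MEIS proteins bind DNA together with HOX proteins.

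Expression is given in FPKM, fragments per length of transcript and per library size, which lets genes be set beside each other within a day. Of the 46 records, 12 reached 1 FPKM on some day and 29 never reached 0.1 FPKM. The number at or above 1 FPKM was 11 (23.9%) on each of days 0, 1 and 2, 10 (21.7%) on each of days 4, 5 and 11, and 9 (19.6%) on day 18. Among all coding records, 56.7% reached 1 FPKM on day 0, 57.7% on day 1, 57.8% on day 2, 57.6% on day 4, 58.0% on day 5, 57.5% on day 11 and 57.0% on day 18. These genes were thus at or above 1 FPKM in a smaller share than coding records at large on every day, and the loss from 11 to 9 came from EN1, PAX5 and HOXB2 passing below 1 FPKM while SIX3 passed above it.

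**Figure D1:**
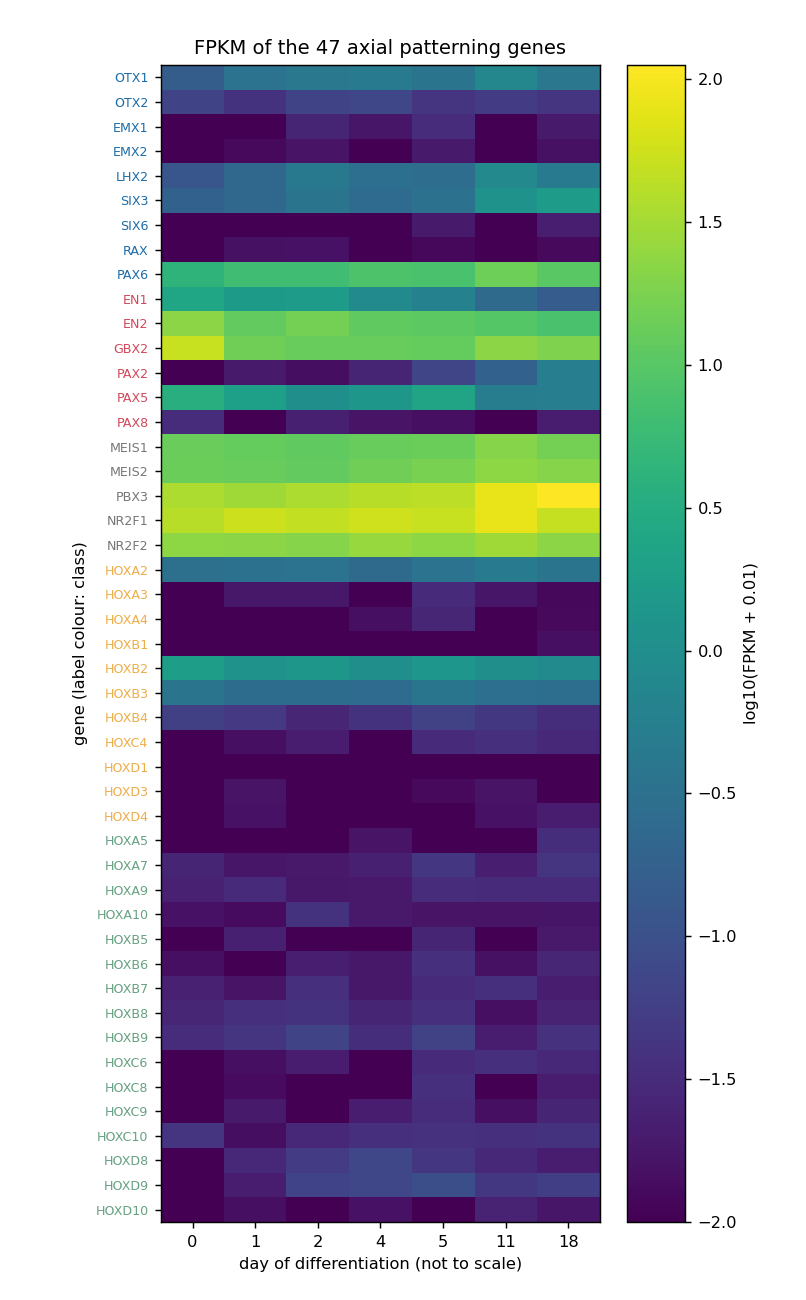
FPKM of the 47 genes (rows, label colour by class: blue forebrain, red midbrain and isthmus, grey broad factors, orange HOX groups 1 to 4, green HOX groups 5 to 10) on the 7 days (columns), as log10(FPKM + 0.01), with the authors' value for the day in each cell. The isthmus genes GBX2 and EN2, PAX6 and the 5 broad factors are bright throughout, whereas the 16 HOX genes of groups 5 to 10 stay below 0.1 FPKM.

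To weigh the regions against each other, FPKM was summed within each class and divided by the sum of the 4 regional classes of the same day, a share that does not depend on how the days were scaled. The midbrain and isthmus genes held 91.5% of the regional sum on day 0, 76.5% on day 1, 70.4% on day 4, 63.2% on day 11 and 65.1% on day 18. The forebrain genes held 5.48% on day 0, 18.4% on day 1, 24.8% on day 4, 32.9% on day 11 and 30.6% on day 18. The HOX genes of groups 1 to 4 held between 2.92% (day 0) and 5.73% (day 5). Those of groups 5 to 10 held between 0.141% (day 0) and 1.12% (day 5). The shared HOXC4 and HOXC6 record counted in both HOX classes.

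These shares rested on few genes. GBX2, an anterior hindbrain factor, alone gave 51.9 of the midbrain and isthmus sum of 80.1 FPKM on day 0 and 18.8 of 27.8 FPKM on day 18. PAX6 alone gave 4.31 of the forebrain sum of 4.81 FPKM on day 0 and 10.4 of 13.1 FPKM on day 18, and PAX6 is also used in hindbrain and spinal cord progenitors. Without the highest gene of each class, the forebrain share was 1.67% on day 0 and 21% on day 18, and the midbrain and isthmus share 95.6% and 71.6%. The share of HOX groups 1 to 4 was then 2.38% and 5.47%, against 2.92% and 3.62% with all genes, and that of groups 5 to 10 was 0.315% and 2%, against 0.141% and 0.702%. This check left out the highest genes of all classes at once, PAX6 as well as GBX2. It therefore does not show the shares without GBX2 alone, which were not computed. The order of the 2 classes can still be read from the sums. On day 11 GBX2 gave 22.1 of the midbrain and isthmus sum of 32.7 FPKM. The rest of that class lay below the forebrain sum on day 11 (17 FPKM) and on day 18 (13.1 FPKM). On all earlier days the rest of that class lay above the forebrain sum.

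**Figure D2:**
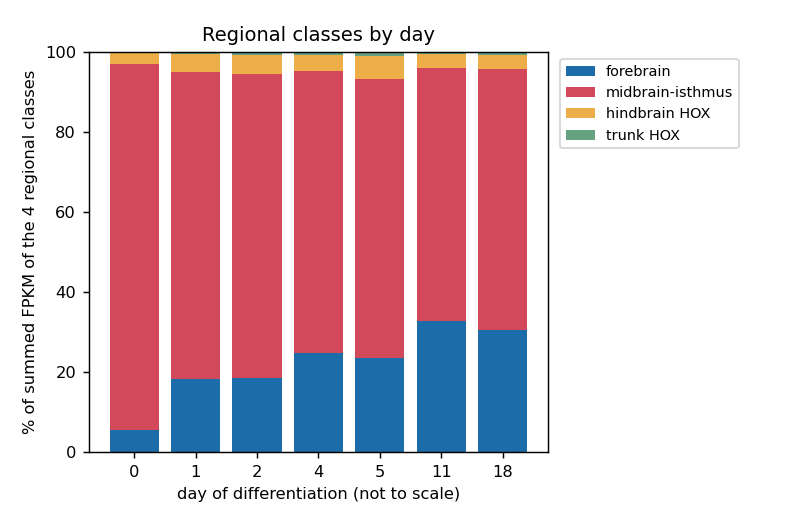
Share of each regional class (stacked bars from 0, percent) in the summed FPKM of the 4 regional classes on each of the 7 days. The midbrain and isthmus class takes most of every bar, from 91.5% on day 0 to 63.2% on day 11, and the forebrain class takes most of the remainder. GBX2, an anterior hindbrain factor, is counted in the midbrain and isthmus class. It gave 51.9 of the 80.1 FPKM of that class on day 0 and 18.8 of 27.8 FPKM on day 18. Without GBX2 alone, the rest of that class lies below the forebrain class on days 11 and 18.

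Between days, changes were expressed as the log2 ratio of FPKM + 0.1. Over the 14443 records that averaged 1 FPKM or more, the median change from day 0 to day 18 was -0.559, so changes are given relative to this median, and as deposited where that alters the reading. A gene was called when it differed at least 2-fold relative to the median and had a mean of at least 1 FPKM, which 11 of the 46 records had. As a yardstick for small changes, coding records with a mean of 1 to 5 FPKM changed by a median of 0.14 between days 1 and 2, the days with the fewest calls, and 95% of them by less than 0.57. For means of 5 to 20 FPKM these values were 0.09 and 0.34, and for 20 to 100 FPKM 0.08 and 0.28.

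From day 0 to day 18, 3 of the 11 records were called higher (PAX6, MEIS2 and PBX3) against 13.9% of coding records of that level. EN1 and PAX5, 2 of the 11, were called lower against 12.8% of coding records. With 11 records, 1 gene more or fewer moves such a share by 9.09%, so nothing is read from these counts about the set as a whole. As deposited, 5 records were lower, with EN2, GBX2 and HOXB2 beside EN1 and PAX5. The share of coding records lower as deposited was not computed. As the median record itself changed by -0.559, nothing is read from this count either.

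GBX2 (chromosome 2, 237074307 to 237076652, minus strand, hg19) was the highest regional gene at the start. Its FPKM was 51.9 on day 0, 14.6 on day 1, 13 on day 2, 12.7 on day 4, 12.3 on day 5, 22.1 on day 11 and 18.8 on day 18. It was thus highest before the switch of medium, lay at a lower level from day 1 to day 5, and was higher again on days 11 and 18. The log2 change was -1.73 from day 0 to day 1, and GBX2 was the 1 record called lower at that step, against 2.21% of coding records, while 0 were called higher against 4.51%. From day 5 to day 11 its change was 1.00, just short of the call, and 0.84 as deposited.

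Exons of GBX2 share 341 of 1372 bases with linc-GBX2-AS, a noncoding record on the other strand. That record had 9.02 FPKM on day 0, 4.35 on day 1, 2.79 on day 4, 6.08 on day 11 and 4.03 on day 18. The counting is not stated to use strand, so reads in the shared part cannot be assigned to 1 of the 2 records.

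EN2 (chromosome 7, 155250824 to 155257520, plus strand), an engrailed homeobox factor of the midbrain and cerebellar region, had 22.2 FPKM on day 0, 12.0 on day 1, 15.8 on day 2, 11.5 on day 4, 10.7 on day 5, 9.76 on day 11 and 7.84 on day 18. It was highest on day 0 and lowest on day 18. Its change from day 0 to day 18 was -0.93 relative to the median and -1.49 as deposited, so that its call depended on the scaling.

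EN1 (chromosome 2, 119599748 to 119605759, minus strand), its paralog, was lower from the outset and lost most of its level between days 2 and 11. It had 2.49 FPKM on day 0, 1.59 on day 1, 1.71 on day 2, 0.843 on day 4, 0.599 on day 5, 0.242 on day 11 and 0.140 on day 18. Its change over the course was -2.88, where 95% of coding records of like level (1 to 5 FPKM) changed by less than 3.49. EN2 stood 8.90-fold above EN1 on day 0 and 56.2-fold on day 18.

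PAX5 (chromosome 9, 36838531 to 37034476, minus strand), a paired-box factor of the same border, had 3.48 FPKM on day 0, 1.93 on day 1, 1.04 on day 2, 1.37 on day 4, 2.31 on day 5, 0.489 on day 11 and 0.523 on day 18. It thus had a peak at the start and a smaller one on day 5. From day 5 to day 11 its log2 change was -1.88, and it was the 1 record called lower at that step, against 3.11% of coding records. As deposited EN1 also passed there.

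The remaining PAX genes of the border differed from PAX5. PAX2 (chromosome 10, 102505468 to 102589697, plus strand) was listed at 0 on day 0 and had 0.00968 FPKM on day 1, 0.00413 on day 2, 0.0158 on day 4, 0.0612 on day 5, 0.172 on day 11 and 0.525 on day 18. PAX2 and PAX5 therefore stood at like levels on day 18, having moved in opposite directions. PAX8 stayed between 0 and 0.0229 FPKM. PAX2 and PAX8 are also used in kidney, ear and thyroid. Of 5 kidney and ear markers, LHX1, also a neuronal factor, had 0.0223 FPKM on day 0 and 1.73 on day 18, EYA1 reached 1.73, and WT1 and GATA3 stayed at or below 0.0126. The thyroid marker TG stayed at or below 0.0998 FPKM.

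PAX6 (chromosome 11, 31806341 to 31839509, minus strand), a paired-box factor of forebrain, eye and ventricular progenitors, was the 1 forebrain gene above 1 FPKM on all 7 days. Its FPKM was 4.31 on day 0, 6.42 on day 1, 6.41 on day 2, 8.23 on day 4, 7.80 on day 5, 14.3 on day 11 and 10.4 on day 18. The highest values were the last 2. PAX6 and PBX3 were the 2 records called higher from day 5 to day 11, against 2.61% of coding records. Of the exon bases of PAX6, 23.8% also lie in linc-PAX6-AS on the other strand, a record with 0.58 FPKM on day 0 and 2.04 on day 11. The change of PAX6 at that step was 1.02, at the edge of the call, and 0.87 as deposited, so that neither PAX6 nor PBX3 passed without the median.

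SIX3 (chromosome 2, 45169037 to 45172390, plus strand), a factor of the anterior forebrain and eye field, had 0.174 FPKM on day 0, 0.216 on day 1, 0.355 on day 2, 0.251 on day 4, 0.331 on day 5, 1.13 on day 11 and 1.74 on day 18. All 1697 of its exon bases lie in exons of linc-SIX3-AS on the other strand, which had 0.0677 FPKM on day 0 and 0.245 on day 18. SIX3 had a mean under 1 FPKM and was not among the 11 records. Its change was 3.31, against a median change in size of 1.10 for coding records with a mean of 0.1 to 1 FPKM, 95% of which were under 3.41.

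LHX2 and OTX1 moved much like each other at lower levels. LHX2 (chromosome 9, 126773889 to 126795442, plus strand), a LIM homeobox factor of cortex and eye, had 0.111 FPKM on day 0, 0.801 on day 11 and 0.445 on day 18. OTX1 (chromosome 2, 63277965 to 63284303, plus strand), a paralog of OTX2, had 0.149, 0.748 and 0.400 FPKM on the same days. Neither reached 1 FPKM on any day. Of the exon bases of LHX2, 30.5% also lie in linc-LHX2-AS on the other strand. That record was listed at 0 on day 0 and had 0.273 FPKM on day 11 and 0.14 on day 18.

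OTX2 (chromosome 14, 57267427 to 57277184, minus strand) stayed between 0.0297 and 0.0630 FPKM, and GBX2 exceeded it between 202-fold (day 4) and 910-fold (day 0). Exons of OTX2 share 1911 of 2399 bases with linc-OTX2-AS, itself at or below 0.0142 FPKM. EMX1 and EMX2, factors of the dorsal telencephalon, did not exceed 0.0225 and 0.00982 FPKM. SIX6 and RAX, factors of the eye field, did not exceed 0.0117 and 0.00573 FPKM. Of the 9 forebrain genes, 5 thus never reached 0.1 FPKM, among them OTX2.

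**Figure D3:**
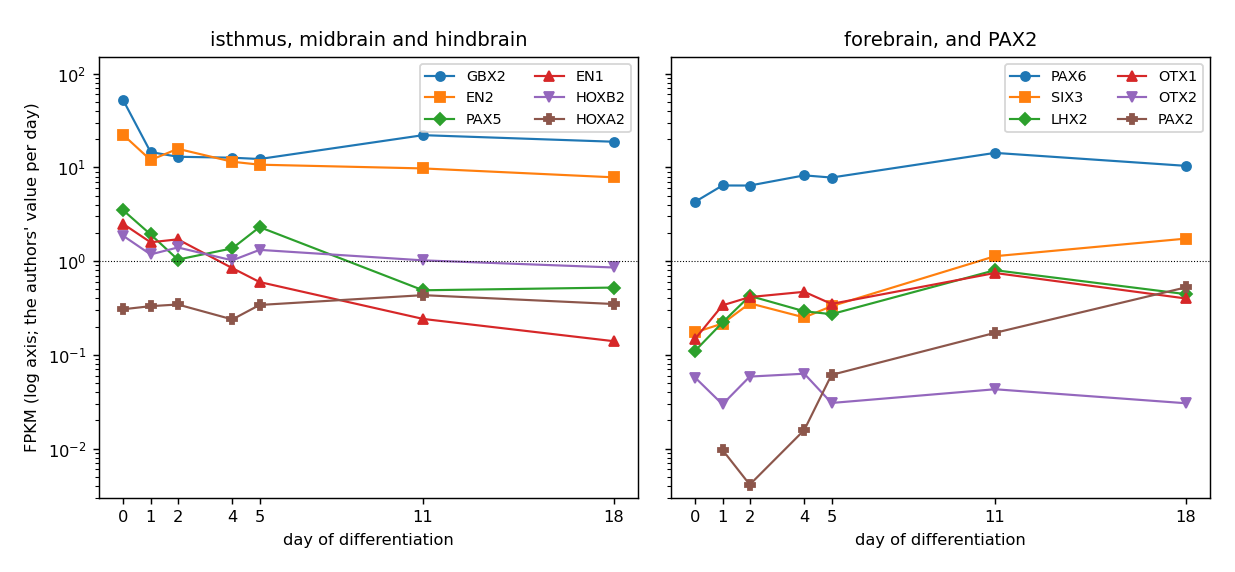
FPKM (log axis) by day for 6 genes of the isthmus, midbrain and hindbrain (left) and for 5 forebrain genes with PAX2 (right). Points are the authors' value for the day, values listed at 0 are not drawn, and the dotted line is 1 FPKM. EN1 goes from 2.49 to 0.140, SIX3 from 0.174 to 1.74, and OTX2 stays under 0.1.

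Of the HOX genes, 3 reached 0.1 FPKM on some day, HOXB2, HOXA2 and HOXB3. HOXB2 (chromosome 17, 46620021 to 46622393, minus strand) was the 1 HOX gene to reach 1 FPKM. It had 1.86 on day 0, 1.18 on day 1, 1.40 on day 2, 1.02 on day 4, 1.32 on day 5, 1.02 on day 11 and 0.856 on day 18. The change from day 0 to day 18 was -0.48 relative to the median and -1.03 as deposited. All 1600 of its exon bases overlap linc-HOXB2-AS on the other strand, a record between 0.0489 and 0.268 FPKM.

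HOXA2 (chromosome 7, 27139974 to 27142394, minus strand), which with HOXB2 patterns the anterior hindbrain, had 0.307 FPKM on day 0, 0.331 on day 1, 0.345 on day 2, 0.239 on day 4, 0.341 on day 5, 0.434 on day 11 and 0.349 on day 18. Exon bases of HOXA2 are also shared with noncoding records on the other strand, so its values are uncertain. HOXB3 (chromosome 17, 46626233 to 46667631, minus strand) lay between 0.250 and 0.365 FPKM, and 77.3% of its exon bases also lie in linc-HOXB2-AS. Neither HOXA2 nor HOXB3 rose or fell steadily over the days. From day 0 to day 18 their log2 changes were 0.70 and 0.32 relative to the median, and 0.14 and -0.23 as deposited.

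The other 8 genes of groups 1 to 4 never reached 0.1 FPKM. HOXB4 lay between 0.0171 and 0.0504 FPKM. HOXA3 reached 0.0202, HOXA4 0.0177, HOXD3 0.00657 and HOXD4 0.0110 FPKM, and the HOXC4 record 0.0253 FPKM. HOXB1, which in the embryo is kept to a single hindbrain segment, was listed at 0 on 6 of the 7 days and reached 0.00463 FPKM, and HOXD1 was listed at 0 on all 7 days.

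In groups 5 to 10, 0 of 16 genes reached 0.1 FPKM on any day. The highest were HOXD9 with 0.0834 FPKM on day 5, HOXD8 with 0.0628 on day 4 and HOXB9 with 0.0567 on day 2. Those of the HOXA cluster peaked at 0.0338 FPKM (HOXA7), with HOXA5 at 0.0237, HOXA9 at 0.0232 and HOXA10 at 0.0291. In the HOXB cluster HOXB5 peaked at 0.0166, HOXB6 at 0.0259, HOXB7 at 0.0267 and HOXB8 at 0.0289 FPKM. In the HOXC cluster HOXC8 peaked at 0.0265, HOXC9 at 0.0227 and HOXC10 at 0.0305 FPKM, and in the HOXD cluster HOXD10 at 0.0144 FPKM. No order by paralog number can be read within these groups, as the values were all of the size that few fragments give.

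What few fragments are worth was estimated from the lowest values of long records with a single transcript, which lie near whole multiples of a step. For a 1 kb transcript the step was about 0.0139 FPKM on day 0, 0.00620 on day 5 and 0.00394 on day 18. On that scale the 11 HOX genes of groups 5 to 10 with a single transcript had at most about 23 fragments on any day, with a median of 3, where HOXB2 had about 187 on day 0 and 304 on day 18. EN1 had about 495 and 98 fragments, SIX3 about 19 and 662, and HOXA2 about 35 and 140. A value listed at 0 on day 0 therefore allows more than the same entry on day 18. An entry of 0 can also be a failed estimate, since ACTB is listed at 0 on all 7 days.

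**Figure D4:**
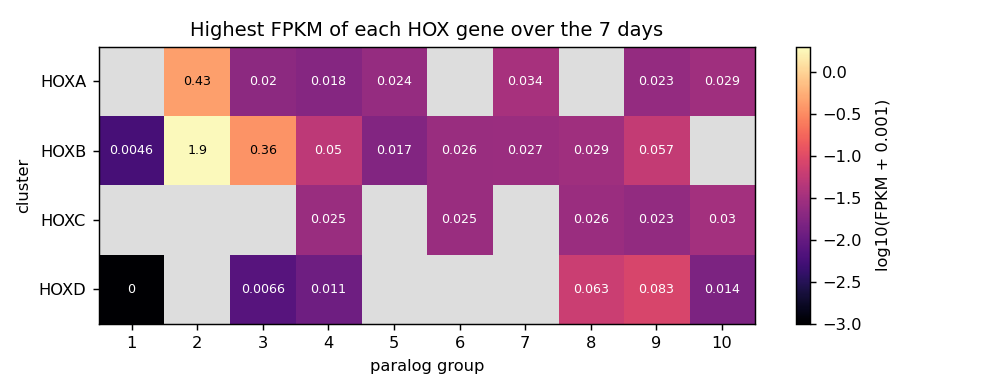
Highest FPKM over the 7 days of each HOX gene of the set, by cluster (rows) and paralog group (columns), coloured as log10(FPKM + 0.001), with the value printed and grey for genes outside the set. HOXB2 (1.86), HOXA2 (0.434) and HOXB3 (0.365) stand above the others, which stay below 0.1. HOXC4 and HOXC6 are 1 record.

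The factors that are not bound to 1 region summed to 127 FPKM on day 0, 239 on day 11 and 217 on day 18, more than the 4 regional classes together on each of these days. PBX3 (chromosome 9, 128509617 to 128729653, plus strand), a TALE homeobox cofactor of HOX proteins, had 35.2 FPKM on day 0, 29.4 on day 1, 35.0 on day 2, 41.0 on day 4, 44.9 on day 5, 83.6 on day 11 and 109 on day 18. It was the highest of all 47 genes on the last 2 days. Its log2 change over the course was 2.18, where 95% of coding records with a mean of 20 to 100 FPKM changed by less than 1.91.

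MEIS2 (chromosome 15, 37183233 to 37393500, minus strand), another TALE factor, had 14 FPKM on day 0, 12.8 on day 1, 12 on day 2, 14.8 on day 4, 16.9 on day 5, 23.4 on day 11 and 20.4 on day 18. Its change was 1.09 relative to the median and 0.53 as deposited, so that its call depended on the scaling. The MEIS1 record (chromosome 2, 66662532 to 66799890, plus strand) stood at 13.5 FPKM on day 0, 12.4 on day 1, 11.7 on day 2, 12.7 on day 4, 13.9 on day 5, 20.9 on day 11 and 16.1 on day 18, a change of 0.82.

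The orphan nuclear receptors NR2F1 and NR2F2 (COUP-TFI and COUP-TFII), graded regulators in several brain regions, had their highest value on day 11. NR2F1 (chromosome 5, 92919043 to 92929778, plus strand) had 41.0 FPKM on day 0, 54.7 on day 1, 48.1 on day 2, 57.5 on day 4, 50.4 on day 5, 81.3 on day 11 and 49.9 on day 18. NR2F2 (chromosome 15, 96869157 to 96883490, plus strand) had 22.9, 22.5, 20.7, 26.5, 23.1, 29.9 and 21.8 FPKM on those days. The direction of NR2F2 from day 0 to day 18 depended on the scaling, with 0.48 relative to the median and -0.08 as deposited. Exons of both overlap noncoding records on the other strand, 70.1% of the bases for NR2F1 and 93% for NR2F2, and those records were at 7.08 and 2.32 FPKM on day 0.

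**Figure D5:**
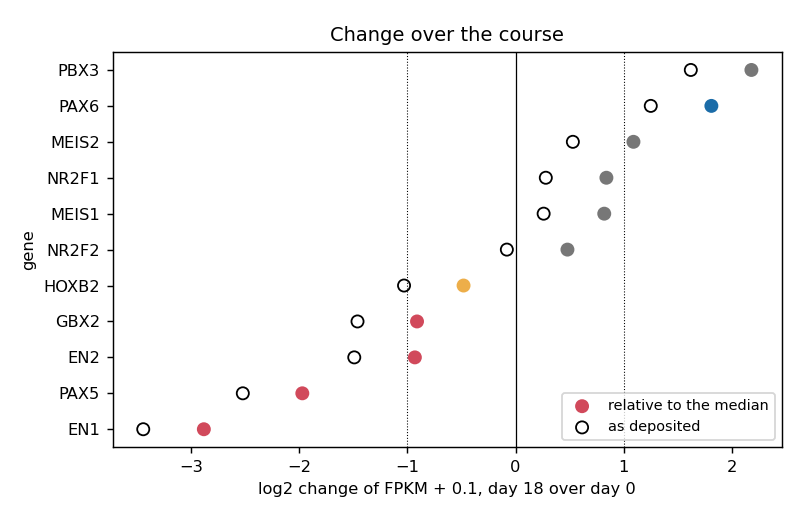
Log2 change of FPKM + 0.1 from day 0 to day 18 for the 11 records with a mean of at least 1 FPKM, relative to the median of expressed records (filled, blue forebrain, red midbrain and isthmus, orange HOXB2, grey broad factors) and as deposited (open). Dotted lines mark the 2-fold limits. EN1 at -2.88 and PBX3 at 2.18 lie farthest out, and open symbols lie to the left of filled ones by the median change of -0.559.

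At 4 of the 6 steps between neighbouring days no record of the set was called. From day 1 to day 2, 0 of the 11 records were called higher and 0 lower, against 0.110% and 0.161% of coding records. From day 2 to day 4 both counts were 0, against 0.127% and 0.670%. Across the replating, from day 4 to day 5, both were again 0, against 0.373% and 0.0424%. From day 11 to day 18 both were 0, against 1.83% and 1.40%. Among neighbouring days, calls within the set were thus made at the step into day 1 and at the step into day 11. Coding records at large were also called most at these steps, 4.51% higher and 2.21% lower into day 1, and 2.61% and 3.11% into day 11. With so few calls, nothing is read from this timing about the set.

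Other genes of regional identity were taken from lists of known markers. Of 8 telencephalic genes 1 reached 1 FPKM, EOMES, with 0.371 on day 0, 1.69 on day 11 and 0.750 on day 18. Of 7 diencephalic and eye genes 3 reached it. Among these TCF7L2, also a general Wnt effector, went from 27.1 to 9.06 FPKM, VSX1 reached 2.33 on day 11, and MITF lay at 1.18 on day 0 and 1.36 on day 18.

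Of 9 genes of midbrain, isthmus and floor plate, 1 reached 1 FPKM. This was LMX1B, a LIM homeobox factor of the isthmus and of serotonergic and dopaminergic neurons, with 1.19 FPKM on day 0, 1.59 on day 1, 3.98 on day 4, 7.40 on day 5, 17.2 on day 11 and 21.1 on day 18. FGF17, a signal of the isthmus, went from 0.00682 to 0.999 FPKM, whereas FGF8 reached 0.188 and WNT1 0.00952. LMX1A and FOXA2, factors of the midbrain floor, stayed at or below 0.0757 and 0.00523 FPKM.

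Of 7 hindbrain genes 0 reached 1 FPKM. EGR2, a factor of single hindbrain segments, had 0.321 FPKM on day 0, reached 0.669 on day 2 and had 0.263 on day 18. The 12 HOX genes outside the set reached at most 0.0883 FPKM (HOXD13, day 2), and CDX1, CDX2 and CDX4, which act upstream of the posterior HOX genes, at most 0.0198. All 6 further cofactors reached 1 FPKM. Among those called higher over the course was PBX4, with 1.43 FPKM on day 0 and 2.09 on day 18, which did not pass as deposited, with a log2 change of 0.52.

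The cultures changed in cell state over the same days. All 5 neuronal markers with a record were called higher from day 0 to day 18, DCX going from 5.46 to 88 FPKM, and the summed neuronal markers went from 149 to 1078 FPKM. All 6 progenitor markers reached 1 FPKM, and from day 0 to day 18 1 was called higher and 0 lower relative to the median. The count of lower markers depended on the scaling, as NES changed by -0.95 relative to the median and by -1.51 as deposited. NES had 513 FPKM on day 0 and 180 on day 18, SOX2 126 and 66.1, FABP7 195 and 258, and HES5, the one called higher, 1.95 and 20. Of 5 mesenchymal markers 3 reached 1 FPKM, their sum going from 245 to 33.0 FPKM, nearly all of it COL3A1. COL1A1 was listed at 0. The neural crest markers SOX10 and FOXD3 stayed at or below 0.165 FPKM, while TFAP2B, also used in hindbrain and midbrain neurons, went from 21.9 to 56.0. Pluripotency markers stayed at or below 0.108 FPKM. S100B, of the astrocyte and oligodendrocyte list, went from 8.68 to 4.25 FPKM, and the other 5 genes of that list, GFAP and MBP among them, stayed at or below 0.342. In bulk RNA a smaller number of cells of 1 type and less RNA per cell cannot be told apart. The part of the changing cell makeup in the changes of EN1, PAX5, PAX6 and PBX3 was not tested.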

How the data were processed

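Cultures were grouped by day from the sample titles (20 samples, 7 days). The authors' methods name TopHat2 (alignment to hg19), Cufflinks (transcript assembly) and Cuffdiff2 (expression), with default settings. Versions are not given in the sources used here. Each deposited FPKM value is a Cuffdiff2 estimate that pools a day's cultures. Single cultures had 0 columns, so the depth per culture is unknown. A second deposited table gave record names and exon positions (other columns, per the file headers). It also holds the authors' comparisons of adjacent days (fold changes, test statistics, p and q values), which were not used.

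Genes and lists were chosen with earlier results of these data known. Log2 ratios used a pseudocount of 0.1, which understates changes of low genes, less the median log2 change of records with a mean of at least 1 FPKM. A call needed a mean of at least 1 FPKM and a 2-fold change. Members reaching 1 FPKM on some day were given on all days, the rest by range, except that PAX2, HOXA2, LHX2, OTX1 and listed genes under 1 FPKM were named after their values were seen. Of the 47 genes, 24 share exon bases with a record on the other strand. The step worth 1 fragment was sought between 0.0035 and 0.015 FPKM per kb, a range set after the values were seen, on records of 1 transcript over 3000 bases, less 200 bases. It is approximate and covers counting only. The call rule was tested on simulated data. Python 3.11.15, numpy 2.4.6 and pandas 2.3.3 were used. Alternatives were another scaling, pseudocount, minimum, fold and level, and leaving out merged records. Some genes of the marker lists and some noncoding records are not reported here.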

Additional observations from a re-analysis of the deposited data

How the results depend on the processing

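Of 143 counts and shares under the alternatives, 119 were within 1.5 times the reported value. Many of these were counts of 0 that stayed at 0. Shares summed over all coding records of a symbol could not differ, as no regional gene had a further record. The number 119 therefore says little about how firm the results are. For the counts of calls below, the shares of coding records under the same alternatives were not computed. A smaller fold or another scaling can change the calls among all coding records too. These counts therefore show only how the calls move with the settings, and nothing is read from them about the set. From day 0 to day 18, called higher were 7 records with a minimum mean of 0.1 FPKM and 8 with no minimum, which added OTX1, LHX2, SIX3 and PAX2 (and HOXD9 with no minimum), and 5 with a fold of 1.5. Called lower were 5 as deposited and 4 with a fold of 1.5. From day 5 to day 11, called higher were 0 as deposited, 1 with a pseudocount of 1, 5 with a minimum of 0.1 FPKM or none, and 6 with a fold of 1.5, and called lower were 2 as deposited and 2 with a fold of 1.5. From day 11 to day 18, 1 was called higher with a minimum of 0.1 FPKM or none (PAX2) and 1 with a fold of 1.5 (PBX3). With a fold of 1.5, from day 0 to day 1, 1 was called higher and 3 lower, from day 1 to day 2, 1 lower, from day 2 to day 4, 1 lower, and from day 4 to day 5, 1 higher. Without the highest gene of each class, the forebrain share on day 0 was 1.67%, the share of HOX groups 1 to 4 on day 18 was 5.47%, and that of groups 5 to 10 was 0.315% on day 0 and 2% on day 18. Among 36 log2 changes of the 12 named genes under other scalings or pseudocounts, 1 had another sign, that of NR2F2. Leaving out single cultures could not be run. No paired analysis was possible because the files hold 1 value per day and none of single cultures.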

Other observations

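Noncoding records inside the HOX clusters were also low. None of the 16 lincRNA records within or overlapping the span of the HOX genes in the 4 clusters reached 1 FPKM. In the HOXB cluster the highest was linc-HOXB2-AS (chromosome 17, 46618235 to 46641696, plus strand), with 0.122 FPKM on day 0, 0.268 on day 2 and 0.0489 on day 18. It shares exon bases with HOXB2, the highest HOX gene. The lincRNA records of the HOXC and HOXD clusters did not exceed 0.00653 and 0.0325 FPKM.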
